A study of Schizosaccharomyces pombe with 4 samples.

Results

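The genes described here encode the translation elongation factors of fission yeast (Schizosaccharomyces pombe) and 1 initiation factor. They are 8 of the 4888 genes in the deposited table and were taken by identifier, without a cut on any measured value. Earlier results of these data were known when they were chosen. Factor eEF1A is encoded by tef101 (SPCC794.09c), tef102 (SPAC23A1.10) and tef103 (SPBC839.15c). Factor eEF2 is encoded by eft201 (SPAC513.01c) and eft202 (SPCP31B10.07), and eEF3 by tef3 (SPCC417.08). The last members are tif51 (SPAC26H5.10c), a gene for eIF5A, and tif1 (SPAC1006.07), the gene for eIF4A. Despite the common label, eIF4A acts in initiation and not in elongation. Of the members, 4 lie on chromosome I, 1 on chromosome II and 3 on chromosome III.

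Association of the RNA helicase Upf1 with chromatin was measured by chromatin immunoprecipitation (ChIP) and hybridisation to Affymetrix tiling arrays. The series has 4 arrays, of which 1 held DNA immunoprecipitated (IP) from an asynchronous culture and 1 DNA immunoprecipitated from a culture in S phase. The other 2 held input DNA of untreated cells and served both cultures, so no S-phase input was used. Upf1 was HA-tagged at its own locus and recovered with an HA antibody. For synchrony, cdc25-22 cells were held in G2 by 3.5 h at 37 °C, returned to 25 °C and fixed 60 min later. The strain of the asynchronous culture is not given in the sources used here, and no array of an untagged strain is among the samples. Array, strain, temperature history and cell cycle stage therefore cannot be told apart between the cultures. The titles of the IP arrays also end in numbers that read as dates years apart, and what they date is not stated. Because each culture has 1 IP array, the values have no replicate error and neither genes nor cultures could be tested. The values carry no depth, and the number of arrays limits their precision.

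Elongation factors carry the ribosome through the coding sequence. eEF1A brings aminoacyl-tRNA to the ribosome as a complex with GTP, eEF2 moves the tRNAs and mRNA after each peptide bond, and eEF3 is an ATPase of fungal ribosomes that helps to release the used tRNA. eIF5A, which carries the modified residue hypusine, relieves stalled peptide bond formation. eIF4A is an RNA helicase that opens the leader of the mRNA for the scanning ribosome. Their mRNAs are among the most abundant of a growing yeast cell. Upf1 itself is best known for nonsense-mediated decay, the removal of mRNAs with premature stop codons.

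Several of these genes are near-identical copies, which limits how far their signals are separate. The coding sequences of the 3 eEF1A genes are 1383 bases long and differ at 25 positions, with 1 difference in protein between tef101 and either of the others and none between tef102 and tef103. The stretch below is the part of 60 bases with most differences, bases 1291 to 1350 from the start codon. It is shown because a probe of 25 bases can separate the copies only where such positions lie. Capitals mark the 7 positions at which the copies are not all the same.
tef101: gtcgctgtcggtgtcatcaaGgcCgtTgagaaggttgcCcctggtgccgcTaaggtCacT
tef102: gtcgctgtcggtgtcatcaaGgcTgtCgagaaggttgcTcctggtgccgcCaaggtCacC
tef103: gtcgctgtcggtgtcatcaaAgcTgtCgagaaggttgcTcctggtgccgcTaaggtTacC

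The eEF2 copies are closer still. Their coding sequences of 2529 bases differ at 11 positions and encode the same protein of 842 residues. Of those positions, 4 fall in the first 60 bases, which are shown with the differences in capitals.
eft201: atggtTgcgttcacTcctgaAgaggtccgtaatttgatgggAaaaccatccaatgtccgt
eft202: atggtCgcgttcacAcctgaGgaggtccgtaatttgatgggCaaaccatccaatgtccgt

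Sequences were read by gene identifier from RefSeq assembly ASM294v3, and the sources used here do not name the build on which gene signals were computed. Probes were 25 bases long, so each gene was cut into all windows of that length and each window was searched for in the genome on both strands. In the eEF1A genes 75.3% (tef101), 83.1% (tef102) and 79.7% (tef103) of windows occurred again elsewhere. For eft201 the share was 89.9% and for eft202 89.4%. All repeated windows of these 5 genes lay in the coding sequence. The windows that reach outside it, 179 in tef101, 70 in tef102, 136 in tef103, 90 in eft201 and 104 in eft202, were found at no other place. In tef3 and tif1 no window was repeated, and in tif51 22 of 1033 were, all of them shared with tif512, the other eIF5A gene. The sources used here do not say which probes make up a gene's signal, so the values of the eEF1A and eEF2 genes are uncertain to the extent that copies share signal.

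**Figure D1:**
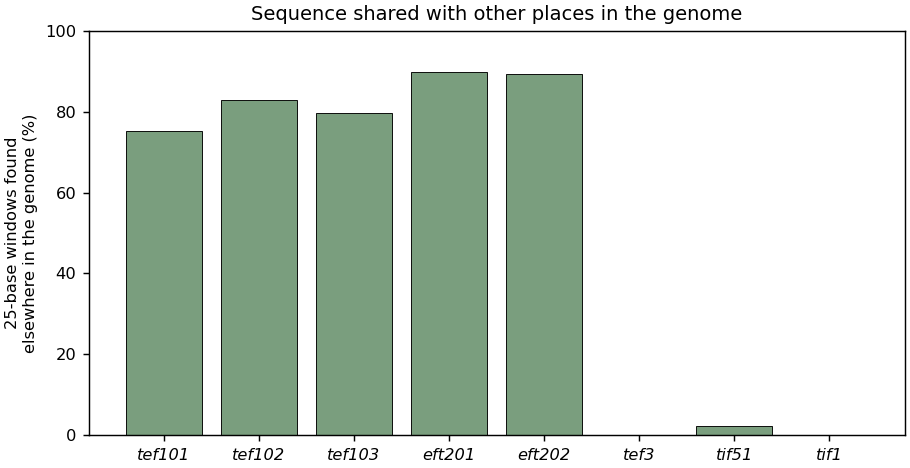
Bars give, for each of the 8 genes, the percentage of its windows of 25 bases that occur again elsewhere in the genome on either strand. The 5 eEF1A and eEF2 genes lie between 75.3% and 89.9%, and tef3 and tif1 are at 0.

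Upf1 ratios were above the median gene at all 8 genes in both cultures. Each deposited value is a linear ratio, IP signal divided by input signal, and the median gene had a ratio of 0.774 (asynchronous) or 0.195 (S phase), so a ratio of 1 does not mark absence of association. Each column was therefore converted to log2 and set to 0 at its median gene. On that scale the median of the members was 0.76 for asynchronous and 0.94 for S-phase cells, against 0 for all listed genes. A gene was called when its ratio was 1.5 times that of the median gene or more. In the asynchronous culture 5 of the 8 members were called, where 5.14% of all listed genes were. In S phase all 8 were called, where 11.2% of all genes were, and 5 were called in both cultures, where 3.36% of all genes were. These counts did not hold once the trend of the ratios with GC content was removed, which left 0 asynchronous and 1 S-phase value of the members called (values are given with the GC content).

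Among the genes for delivery of tRNA, tef103 had the highest value. Its ratio was 1.495 for asynchronous and 0.422 for S-phase cells, which is 1.93-fold and 2.17-fold above the median gene and places it 33rd and 91st of 4888. The ratios of tef101 were 1.31 and 0.329, asynchronous value first, or 1.69-fold above the median gene in each. For tef102 the ratios were 1.31 and 0.346, or 1.69-fold and 1.78-fold. The eEF1A genes were thus all called in both cultures, and tef101 and tef102 were nearly the same in each.

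The genes for translocation were lower in the asynchronous culture. For eft201 the ratios were 1.13 and 0.343, 1.46-fold and 1.76-fold above the median gene, asynchronous value first. For eft202 they were 1.09 and 0.406, 1.41-fold and 2.08-fold. Neither reached 1.5-fold in the asynchronous culture, eft201 by a small margin, and both did in S phase.

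The ratio of tef3, which has no copy in the genome, was 1.32 in asynchronous and 0.505 in S-phase cells. These are 1.71-fold and 2.59-fold above the median gene, and tef3 was 35th of all genes in S phase. For tif51 the ratios were 1.39 and 0.444, or 1.80-fold and 2.28-fold, and the gene held places 68 and 61. The initiation factor gene tif1 was the lowest member in the asynchronous culture, with a ratio of 1.03 or 1.33-fold, and it reached 1.72-fold in S phase with a ratio of 0.336.

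The order of the members was not resolved in detail. The standard deviation across all genes of the difference between cultures was 0.35 on the log2 scale, and divided by the square root of 2 it was 0.24, which served as a measure of array-to-array spread. True differences between the cultures are part of it. In the asynchronous culture the log2 values fell from 0.95 (tef103) over 0.85 (tif51), 0.77 (tef3), 0.76 (tef101), 0.76 (tef102), 0.54 (eft201) and 0.50 (eft202) to 0.42 (tif1). The largest step between neighbours in this order was 0.22, from tef102 to eft201. In S phase the order was tef3 (1.37), tif51 (1.19), tef103 (1.12), eft202 (1.06), tef102 (0.83), eft201 (0.82), tif1 (0.79) and tef101 (0.76), with a largest step of 0.23 from eft202 to tef102. All steps were below 0.35, and the first and last members differed by more, 0.53 (asynchronous) and 0.62 (S phase). The ends of an ordered set lie farther apart than a given pair even by noise, so these gaps do not show that the ends are resolved.

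**Figure D2:**
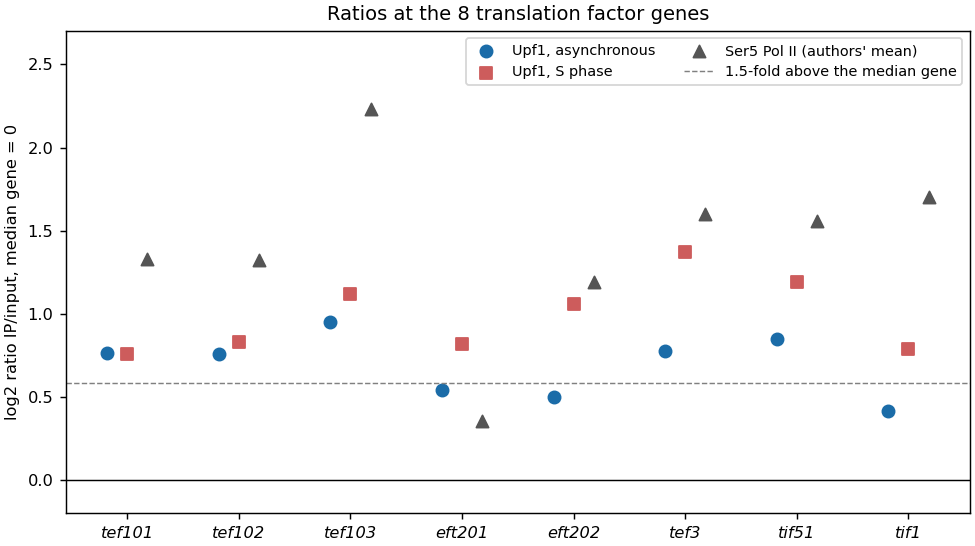
Log2 ratios of IP over input relative to the median gene of each column (y axis) are shown for the 8 genes (x axis), with a single array for each Upf1 point and the authors' mean for Ser5 Pol II. All Upf1 values are above 0, all S-phase values are above the dashed line at 1.5-fold, and the Pol II value of eft201 (0.35) is the lowest of the 8.

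The S-phase and asynchronous arrays were then compared directly, a ratio in which the input mean cancels. The median difference of the members was 0.30 (S phase minus asynchronous, log2, median gene at 0), and 7 of the 8 differences were positive, where 50% of all genes are positive by the centring. A single member, tef3, was at least 1.5-fold higher in S phase (0.59, or 1.51-fold), where 3.78% of all genes were. None was at least 1.5-fold lower, where 4.03% were. With the GC trend removed the median difference was 0.16, 5 of the 8 differences were positive, none was 1.5-fold higher, and those of the eEF1A genes were negative, -0.27 at tef101, -0.26 at tef102 and -0.10 at tef103. Just under the threshold lay eft202 with 0.55. The differences were 0.36 at tif1, 0.33 at tif51 and 0.27 at eft201. The eEF1A genes had the smallest ones, 0.16 at tef103, 0.06 at tef102 and -0.01 at tef101. The ratios of all genes were more widely spread in S phase (standard deviation of 0.48 against 0.34), and with the S-phase column brought to the same standard deviation the median difference of the members was 0.01 and none was 1.5-fold higher.

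**Figure D3:**
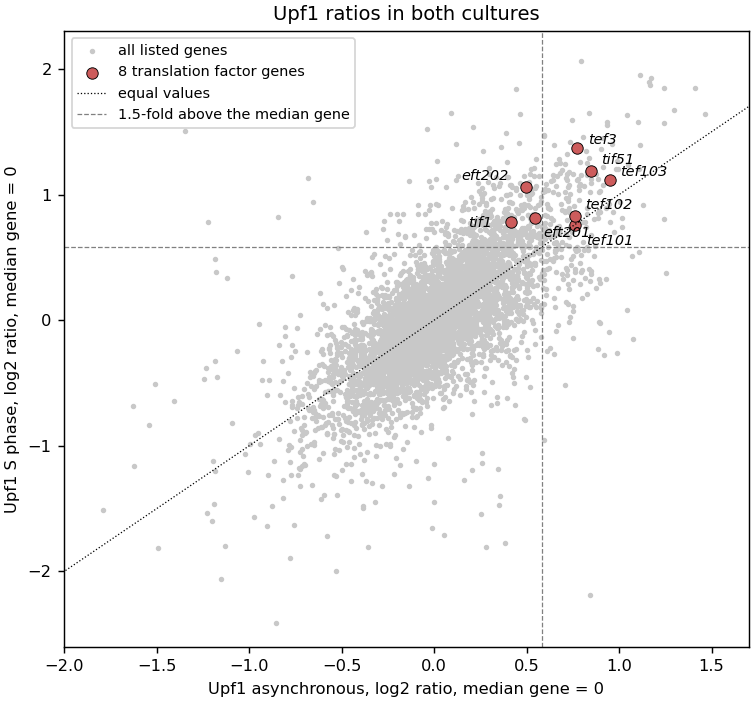
Each point is a gene, with its log2 Upf1 ratio in the asynchronous culture on the x axis and in S phase on the y axis, both relative to the median gene. The 8 members lie in the upper right part of the cloud, tef101 on the line of equal values and tef3 and eft202 farthest above it.

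The members are also among the most GC-rich genes, which bears on all of the values above. Their GC content ran from 41.1% (tif51) to 50.0% (tef102), against a median of 36.8% over the genes with a match to the annotation. In the order of GC content tef102 was 7th, tef103 14th, tef3 16th, tef101 20th, eft202 47th, eft201 60th, tif1 165th and tif51 364th of 4850. Over all genes the Upf1 ratios were higher at higher GC content, and the upper 10% of genes by GC content (485 genes, the 8 members among them) had medians of 0.36 and 0.53. With a quadratic trend on GC content removed, the medians of the members were 0.06 (asynchronous) and 0.23 (S phase). The single member still called was tif51, the one of lowest GC content, with 0.85 in S phase. Its asynchronous value after removal, 0.58, lay just under the threshold. For tef102 the values were then -0.04 and -0.28. The 70 other genes with a GC content of at least 45% showed medians of 0.57 and 0.73, with 34 called among asynchronous and 47 among S-phase values.

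GC content, RNA level and Pol II ratio moved together, so their parts in the Upf1 values cannot be told apart by a trend over genes. The 70 GC-rich genes had a median Pol II value of 1.37 and a median RNA level of 1070 FPKM, where the median gene had 41.0 FPKM. The 228 genes in the upper 10% of GC content but in the upper 10% of neither RNA level nor Pol II ratio had Upf1 medians of 0.18 and 0.25. Conversely, the 68 genes in the upper 10% of RNA level with a GC content below the median had medians of 0.20 and 0.25. Both groups were defined after the values had been seen, and their medians lie below those of the members. Neither group matches the members in the trait it was taken for. The 228 genes had a median GC content of 41.6%, where the members had 46.9%. The 68 genes had medians of 320 FPKM and 0.55 for Pol II, where the members had 2188 FPKM and 1.44. The groups therefore cannot show what GC content or RNA level as high as that of the members would give.

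**Figure D4:**
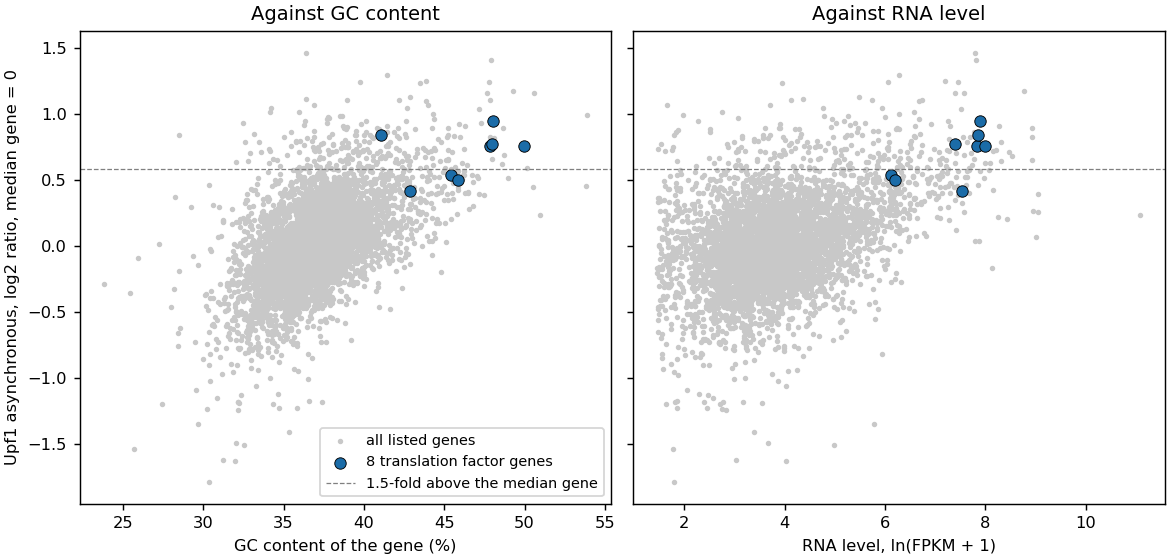
The asynchronous log2 Upf1 ratio relative to the median gene (y axis) is plotted against the GC content of the gene in percent (left) and against RNA level as the natural log of FPKM + 1 (right), with the 8 members in blue over the other genes (left, those with a match to the annotation). The members lie at the right side of both panels, between 41.1% and 50.0% GC, and 5 of them are above the dashed line at 1.5-fold.

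The study set Upf1 beside Ser5-phosphorylated RNA polymerase II (Pol II), measured on published arrays with inputs of their own, and beside RNA level from published RNA-seq. Both columns are the authors' means and carry no error here. The Pol II ratio of tef103 was 2.57, 4.70-fold above the median gene and 8th of all genes. It was 1.78 at tif1, 1.66 at tef3, 1.61 at tif51, 1.37 at tef101 and 1.37 at tef102. The eEF2 genes differed, with 1.25 at eft202 and 0.699 at eft201, which is 1284th of all genes. Thus 7 of the 8 members were at least 1.5-fold above the median Pol II ratio, where 16% of all genes were, and eft201 was the exception.

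RNA levels were high throughout. They were 2511 FPKM for tef101, 2955 for tef102 and 2690 for tef103, which hold places 31, 24 and 26 of all genes. For tif51 the level was 2546 FPKM, for tif1 1865 and for tef3 1638. The eEF2 mRNAs were lower, with 452 FPKM for eft201 and 494 for eft202, at places 238 and 219. How reads that fit more than one copy were counted is not given in the sources used here, so the levels of the eEF1A and eEF2 copies are uncertain. The 489 genes of the upper 10% of RNA level, which hold all 8 members, had Upf1 medians of 0.38 (asynchronous) and 0.62 (S phase), with 122 and 265 genes called. The 489 genes with the highest Pol II ratio had medians of 0.43 and 0.68.

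Relative to Pol II the members did not stand high. The log2 Upf1 ratio of the asynchronous culture minus that of Pol II was negative at 7 of the 8, from -0.57 at tef102 to -1.28 at tef103 and tif1, and 0.19 at eft201. Of 4888 genes, tef103 was 4826th and tif1 4824th by this measure. The Pol II column has a standard deviation of 0.65 across genes, wider than that of Upf1, which by itself lowers the measure at genes with a high Pol II ratio. The upper 10% of genes by Pol II had a median of -0.80, close to the -0.70 of the members. In rank, tef103 was near the top in both, 8th for Pol II and 33rd for asynchronous Upf1, whereas tif1 was 72nd for Pol II and 533rd for Upf1. At eft201 the order was the opposite, 1284th for Pol II and 296th (asynchronous) or 250th (S phase) for Upf1.

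The copies of a factor were compared with each other. Between tef101 and tef102 the log2 values differed by 0.00082 in the asynchronous culture, by -0.07 in S phase and by 0.0046 for Pol II, tef101 minus tef102. The third copy, tef103, was above tef101 by 0.19, 0.36 and 0.90 in these columns, although 1059 of its 1495 windows occur in tef101. Its RNA level was 1.07 times that of tef101. The step in Pol II was the largest of them, while the asynchronous step was below the spread between arrays. For eEF2, eft201 minus eft202 was 0.04 in the asynchronous culture, -0.24 in S phase and -0.84 for Pol II. A gap of that size in Pol II was found although 2332 windows of either gene occur in the other.

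The eIF5A genes are less alike, with 90.1% identity of the coding sequence and 97.5% of the protein. The gene tif512 (SPBC336.10c) is not among the 8 members. Its Upf1 values were 0.58 (asynchronous) and 0.35 (S phase), so it lay below tif51 by 0.27 and 0.84. The Pol II values were close, 1.56 at tif51 and 1.59 at tif512. Both genes had high RNA levels, 2546 and 2154 FPKM. Unlike tif51, tif512 had a negative difference between cultures, -0.24.

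The promoters were searched for elements known from highly transcribed fission yeast genes. HomolD (CAGTCACA) takes the place of a TATA box at most ribosomal protein genes of this yeast, and HomolE (ACCCTACCC) often accompanies it. The window ran from 250 bases before to 50 bases after the annotated gene start, and both strands were searched. HomolD was found at 5 of the 8 members, namely tef101, tef102, tef103, tef3 and tif1, against 2.67% of 5123 protein-coding genes and 63.0% of 135 ribosomal protein genes. Of the 44 other translation factor genes described below, 1 had it. The sites are shown with 30 bases on each side, 5′ to 3′ on the strand of the gene, with the element in capitals. It starts 44 bases before the annotated start in tef101, 56 in tef102, 59 in tef103, 139 in tef3 and 54 in tif1.
tef101: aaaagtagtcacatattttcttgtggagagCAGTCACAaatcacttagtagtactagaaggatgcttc
tef102: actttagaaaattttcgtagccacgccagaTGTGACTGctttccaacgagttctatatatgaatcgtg
tef103: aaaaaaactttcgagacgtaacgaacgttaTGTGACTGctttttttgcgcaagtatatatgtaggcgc
tef3: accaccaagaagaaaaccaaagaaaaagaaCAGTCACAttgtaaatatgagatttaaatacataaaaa
tif1: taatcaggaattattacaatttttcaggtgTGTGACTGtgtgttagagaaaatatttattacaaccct

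The element reads forward at tef101 and tef3 and backward, as TGTGACTG, at the other three. HomolE was found at 1 member, eft202, against 1.31% of all promoters and 29.6% of those of ribosomal protein genes. Its 9 bases lie 59 bases before the start. The eft201 promoter held neither element, although its coding sequence is nearly that of eft202. The tif51 promoter held neither as well. The motif TATAAA was found at 3 members, tef102, eft202 and tif1, and at 48.1% of all promoters, so its share in the members was not above that of other genes. A match says only that these letters are present in the window.

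The other translation factor genes were taken from the annotation by their product names. They numbered 44, with 5 elongation, 33 initiation and 6 termination or release factors, and their Upf1 medians were 0.10 (asynchronous) and 0.23 (S phase). The classes follow the words of the product name, so the initiation class also holds an assembly protein for eIF2 and a ribosome biogenesis protein. Of the 44 genes, 3 were called in the asynchronous culture (6.82%), 9 in S phase (20.5%) and 3 in both (6.82%). Of all listed genes 5.14%, 11.2% and 3.36% were, so the asynchronous share was near that of all genes. Some of the listed products work in mitochondria, among them EF-Tu (tuf1) and EF-Ts (tsf1), although mitochondrial products were left out where the name says so. Without tuf1, tsf1, mti2, rrf1 and pth4 the medians of the other 39 genes were 0.11 and 0.34.

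Among elongation factors, the eEF1B complex exchanges the nucleotide of eEF1A. The gene for its gamma subunit, SPAC29A4.02c, was called in both cultures, with Upf1 values of 0.63 (asynchronous) and 0.89 (S phase). The gene for the beta subunit, tef5, had 0.47 and 1.09 and was at least 1.5-fold higher in S phase, with a difference of 0.62, close to the 0.59 of tef3. Their Pol II values, 1.46 and 1.35, and RNA levels, 1621 and 2547 FPKM, were in the range of the members. The values of tuf1 were 0.21 and 0.62, and those of tsf1 were -0.19 and -0.04.

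The 33 initiation factor genes had medians of 0.10 (asynchronous) and 0.20 (S phase). Of them 2 were called among asynchronous (6.06%) and 6 among S-phase values (18.2%), where 5.14% and 11.2% of all genes were. Called in both cultures were tif11, the gene for eIF1A, with 1.02 and 0.82, and tif5, the gene for eIF5, with 0.78 and 0.96. Called in S phase alone were sui1, the gene for eIF1 (0.85), tif471, the gene for the scaffold eIF4G (0.62), tif213 (0.62) and sce3 (0.60). The asynchronous value of tif11 was above that of every member, and it was 22nd of all genes. Among the release factor genes erf1 had 0.22 and 0.47 and sup35 had 0.10 and 0.34, and none of the 6 was called in either culture. Initiation and release factor genes had median RNA levels of 291 and 40.4 FPKM, against 2188 FPKM for the members.

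Ribosomal protein genes, which are also highly transcribed, are given side by side. HomolD was found at 63.0% of them and at 5 of the 8 members. The 135 genes had a median Pol II value of 1.49, where the members had 1.44. Their Upf1 medians were 0.52 (asynchronous) and 0.67 (S phase), lower than the 0.76 and 0.94 of the members, and their median GC content was 42.6%, where the members had 46.9%. With 1 array for each culture this difference was not tested. The 3 genes outside the members whose Upf1 and Pol II values lay nearest to the median profile of the members, by Euclidean distance over the 3 ratio columns on the log2 scale, were rpl302 (0.091), mpg1 (0.11) and asl1 (0.13). They encode ribosomal protein L3, mannose-1-phosphate guanyltransferase and an O-glucosyl hydrolase. The distances of the members themselves ran from 0.17 (tef102) to 1.12 (eft201). The 3 named genes were picked as the nearest, so their smaller distances follow from that choice.

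Most genes next to the members had lower ratios, as most genes anywhere do, and fewer of them did once the GC trend was removed. The nearest listed gene on each side gave 16 neighbours, with a median distance of 692 bp between gene ends and Upf1 medians of 0.20 (asynchronous) and 0.17 (S phase). In the asynchronous culture 15 of the 16 were lower than their member, and in S phase all 16 were. The members held percentiles of 89.1 to 99.3 among all genes in the asynchronous culture and 93.7 to 99.3 in S phase. Nearly all genes of the table are thus lower than they are, and the counts show nothing particular to neighbours. With the GC trend removed from members and neighbours alike, 10 and 11 of the 16 were lower. Without that removal, the exception in the asynchronous culture was rpl35A01, a ribosomal protein gene 283 bp from eft202, with 0.4999 against 0.4990 for eft202. In S phase it had 0.99, and its Pol II value of 1.92 was above that of eft202. Of the 16 neighbours, 1 was called in the asynchronous culture, SPAC26H5.09c beside tif51 (0.59), and 2 in S phase, rpl35A01 and rpl1602 beside tef102 (0.80). The lowest neighbour was mfm2 beside eft201, a mating pheromone gene, with -0.76 and -1.63.

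Around tef103 the values were 0.22 and -0.33 at efm4 and 0.18 and 0.24 at thf1, asynchronous value first. The gene tef3 was flanked by values of 0.09 and -0.21 at mto1 and by -0.14 and 0.07 at SPCC417.09c. Without correction for GC content both genes were above their neighbours by more than the spread between arrays. With the GC trend removed, the asynchronous value of tef103 was 0.26 beside 0.20 at efm4, and that of tef3 was 0.09 beside 0.05 at mto1, gaps below that spread. The other gaps of these genes stayed above it, but not all of them above the 0.35 used for the order of the members. Below 0.35 were the asynchronous gap of tef3 to SPCC417.09c and the S-phase gap of tef103 to thf1. Asynchronous values were then -0.10 at thf1 and -0.22 at SPCC417.09c. In S phase tef103 had 0.17, beside -0.35 at efm4 and -0.11 at thf1. The S-phase value of tef3 was 0.44, beside -0.25 at mto1 and -0.03 at SPCC417.09c. At tef101 the neighbours were efr3 (0.30 and 0.38) and ugp1 (-0.03 and -0.17), and at tef102 they were rbm8 (0.23 and 0.49) and rpl1602 (0.52 and 0.80). The flanks of eft201 and eft202 also held tcb3 (0.15 and 0.43) and tcb2 (-0.10 and 0.20), genes for tricalbins, which tether the endoplasmic reticulum to the plasma membrane. At tif51 the other neighbour was mug56 (0.26 and 0.38), and at tif1 they were rgf2 (0.29 and -0.08) and etd1 (-0.19 and -0.10). Of the genes second in distance, 4 were called in asynchronous and 5 in S-phase cells. They were rpl1601 near tef103 (0.64 and 0.67), bgl2 near tif51 (0.85 and 0.68), cfh2 near tef3 (0.80 and 0.62), rpl3401 near tef102 (0.59 and 1.02) and, in S phase alone, lat1 near tef101 (0.32 and 0.72).

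**Figure D5:**
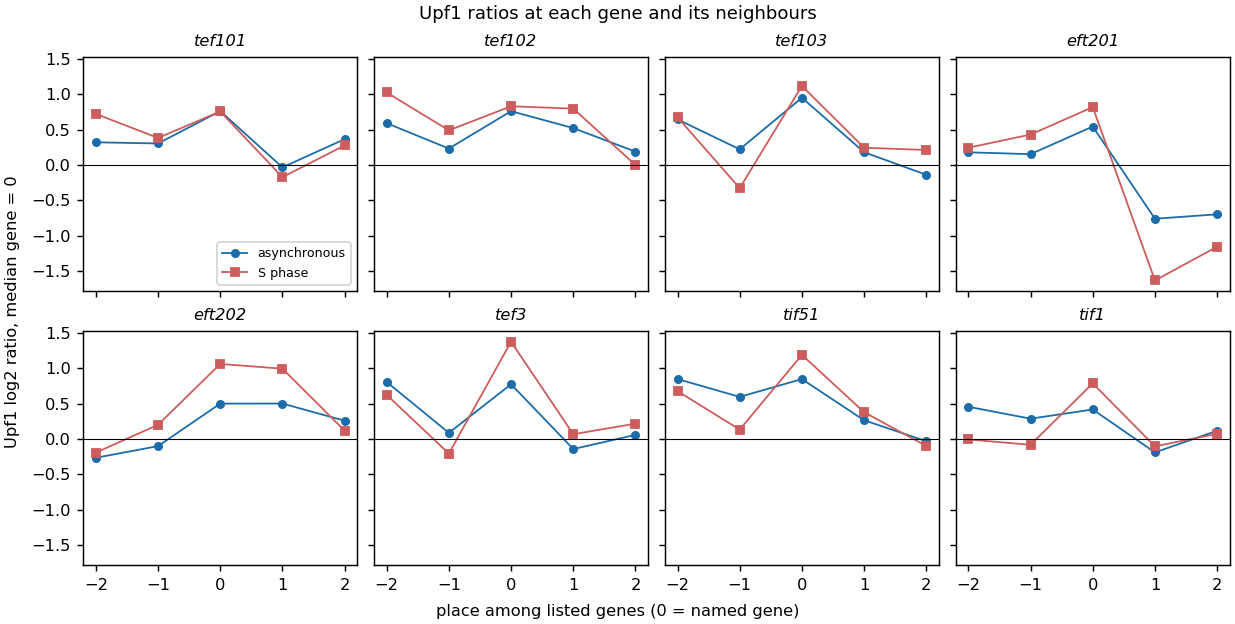
For each of the 8 genes (place 0) the log2 Upf1 ratio relative to the median gene (y axis) is shown with that of the nearest 2 listed genes on each side (x axis, not to scale), for the asynchronous culture in blue and S phase in red. In S phase all genes at places -1 and 1 are lower than the gene between them, with rpl35A01 beside eft202 the closest.

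Annotated genes overlap 7 of the members, and tef3 is free of them. Most are long non-coding RNA genes on the opposite strand that are not in the table. The longest overlap is that of SPNCRNA.957, which covers 60.7% of tef102. Listed genes overlap only tef101, by 52 bases of efr3, and tef102, by 17 bases of rbm8. Their probes are not known to be separate, and the DNA of both strands is recovered together in ChIP.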

How the data were processed

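The authors reduced probe intensities to a signal for each gene (the procedure of the Affymetrix algorithms document), scaled the 2 inputs to a common median, averaged them and deposited linear ratios of IP over input. From each pair of Upf1 IP arrays they kept the one judged better in quality. The Pol II column is a ratio made in the same way. The deposited RNA level is the natural log of FPKM + 1. That base was settled from the values, since FPKM multiplied by gene length in kb summed to 917913 with the natural base, and to 177585 with base 2. Identifiers were matched to RefSeq ASM294v3 for 4850 genes (38 unmatched). All per-sample columns were mapped.

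Ratios were converted to log2, centred on the median of all 4888 genes and called at 1.5-fold (Python 3.11.15, pandas 2.3.3). The steps were tested on simulated data. No p-values were computed. Coding sequences were aligned with Biopython 1.88. All 8 members are named; of other translation factors, the elongation factors and those called in both cultures; the 3 genes of nearest profile; and the nearest neighbours. The genes sui1, tif471, tif213, sce3, erf1, sup35, mti2, rrf1 and pth4 and the second neighbours were singled out after their values were seen. The members and lists were chosen with earlier results of these data known. Alternatives were another centring, S-phase scaling, removal of GC or length trends, gene filters, averaged copies and a 2-fold threshold.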

Additional observations from a re-analysis of the deposited data

Results flagged for a closer look

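The genes below were above the median gene in 1 culture and below it in the other. None of the 8 members was. Of the 48 genes named in the text 6 were, 5 neighbours of members and the release factor gene rrf1, where 23.3% of all listed genes were. The differences between cultures were not tested.

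The differences, S phase minus asynchronous on the log2 scale, were -0.56 at efm4 beside tef103, -0.38 at rgf2 beside tif1, -0.30 at mto1 and 0.20 at SPCC417.09c on either side of tef3, and 0.29 at tcb2 beside eft202. At rrf1 the difference was 0.36. The values on both sides were small, from -0.33 to 0.29.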

How the results depend on the processing

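Of 277 values under the 10 alternatives, 160 were classed as the same, 101 as moved and 16 as reversed. A log2 value was the same when it stayed within the spread of its main value. Counts of genes have no such spread, and a fall from 546 to 403 of all genes called in S phase (quadratic GC trend removed) was classed as the same. All 16 reversed values changed sign from a main value of at least 1.5-fold. Some values classed as moved changed sign too, such as the median difference with the ratios as deposited, from 0.30 to -1.68. No paired analysis was possible because each culture has 1 IP array, and no array could be left out for the same reason. With a quadratic trend on GC content removed, the members' medians were 0.064 (asynchronous) and 0.23 (S phase), 0 and 1 members were called, 0 were higher in S phase, and 157 of all genes were called in the asynchronous culture. A linear trend on GC content, chosen after seeing the data, gave medians of 0.040 and 0.24, 0, 1 and 0 members, and 152 genes. Under the quadratic trend the S-phase values of tef101 and tef102 were -0.17 and -0.28 and the asynchronous value of tef102 was -0.036, and under the linear one they were -0.16, -0.27 and -0.095. With the ratios as deposited, without centring, medians were 0.39 (asynchronous), -1.42 (S phase) and -1.68 (difference), 0 members were called in either culture, 0 were higher and 8 lower in S phase, and 31 and 0 of all genes were called. The S-phase values were then -1.54 (eft201), -1.30 (eft202), -1.60 (tef101), -1.53 (tef102), -1.24 (tef103), -0.99 (tef3), -1.57 (tif1) and -1.17 (tif51), and the difference of tef3 was -1.39. With centring on the 25% of genes of lowest Pol II ratio the S-phase median was 1.20, 8 members were called in the asynchronous culture, 2 were higher in S phase, and 602 (asynchronous) and 1110 (S phase) of all genes were called. With S-phase ratios scaled to the asynchronous spread the S-phase median was 0.67 and the median difference 0.014, with 5 members called in S phase, 0 higher, and 246 of all genes called. A threshold of 2-fold left 4 members called in S phase, 0 in the asynchronous culture and 0 higher, and 145 and 24 of all genes. With copies averaged to 5 factors, 5 were called in S phase and 3 in the asynchronous culture. No member was higher in S phase (0) with the trend on gene length removed or when the 20% of genes with least RNA were dropped. Apart from the construction of each alternative, the cause of these changes was not tested.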
